A study of Mus musculus with 18 samples.

Results

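Slit, Robo, netrin, Unc5 and Dcc genes encode the secreted cues and the receptors that steer growing axons and migrating cells. The 10 genes described here were Slit1, Slit2, Slit3, Ntn1, Robo1, Robo2, Dcc, Unc5a, Unc5b and Unc5c, and they were taken by name from the 18820 genes that had a probe set with a single gene symbol. Each of the 10 was measured by 1 such probe set. They were followed in clone C2, a line of immortalised mouse embryonic fibroblasts (iMEFs) in which Ezh2 can be deleted.

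The data are 18 Affymetrix Mouse Gene ST arrays of total RNA, 2 for each of 9 groups. In the time course, C2 cells were sampled at days 5, 18 and 32 after Tamoxifen, and the vehicle-treated cells (ethanol) were the baseline. The labels give no day for the vehicle cells, which were the baseline of every day. Effects of deletion, of Tamoxifen itself and of time in culture therefore cannot be told apart in the time course. In the rescue experiment the groups were Ezh2 null cells (labelled Ezh2 -/- and Ezh2-mutant), cells with an Ezh1 pre-rescue, cells with an Ezh2 pre-rescue, cells with an Ezh2 post-rescue, and control cells labelled Ezh2 WT. A pre-rescue received the transgene, a Flag-tagged Ezh1 or Ezh2 in a retroviral vector, before the endogenous gene was deleted, and a post-rescue received it after deletion. All groups carried c-Myc and the ROSA26-CreERT2 allele, which expresses a tamoxifen-activated Cre from a broadly active promoter. The methods describe the clone as derived from Ezh2 flox/Δ cells, so the vehicle and control cells had 1 conditional allele of Ezh2 and 1 already deleted allele. The line is 1 clone, and the labels do not say whether the 2 arrays of a group were grown as separate cultures. The p-values therefore rest on a spread that may be technical. Whether control and Ezh2 null cells carried an empty vector is not given in the sources used here.

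Slit proteins bind Robo receptors and usually repel the axon or the cell that carries them. Netrin-1, the product of Ntn1, attracts through Dcc and repels when an Unc5 receptor takes part, and Dcc and the Unc5 receptors are also known as dependence receptors, which can promote cell death when netrin is missing. Ezh2 and its paralogue Ezh1 are the alternative catalytic subunits of PRC2, the Polycomb complex that methylates histone H3 at lysine 27 and keeps many developmental genes silent, often at promoters rich in CpG dinucleotides.

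CpG-rich promoters are the usual setting of Polycomb silencing, and the 4 promoters shown are those of genes that rose at least 2-fold in the time course and have a CpG-rich start. Robo2 also rose at least 2-fold, and its promoter is given by its counts alone. RefSeq start sites (GRCm38.p6) were matched for 7 of the 10 genes, with 9 start sites in all. Slit1, Ntn1 and Dcc are named only, although Dcc also rose at least 2-fold (4.46-fold at day 32). In the 250 bases before the matched start site, capitals mark every CG dinucleotide, which reads the same on both strands. The windows of Slit2 and Unc5a lie inside the annotated gene spans, which begin further upstream, at 47981291 and 54945151. The same holds for Robo1, whose span begins at 72027518.
Slit2 (chr5:47982905-47983154, + strand): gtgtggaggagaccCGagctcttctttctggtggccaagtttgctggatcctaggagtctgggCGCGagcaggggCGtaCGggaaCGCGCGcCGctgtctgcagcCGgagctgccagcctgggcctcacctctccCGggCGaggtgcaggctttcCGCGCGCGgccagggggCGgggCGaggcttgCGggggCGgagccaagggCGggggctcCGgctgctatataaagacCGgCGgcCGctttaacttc
Slit3 (chr11:35121206-35121455, + strand): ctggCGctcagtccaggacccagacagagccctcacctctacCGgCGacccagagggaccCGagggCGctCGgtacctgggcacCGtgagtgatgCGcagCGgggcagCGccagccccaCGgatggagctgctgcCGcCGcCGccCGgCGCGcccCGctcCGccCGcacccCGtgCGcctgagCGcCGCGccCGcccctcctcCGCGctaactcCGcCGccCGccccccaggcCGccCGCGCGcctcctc
Unc5a (chr13:54949161-54949410, + strand): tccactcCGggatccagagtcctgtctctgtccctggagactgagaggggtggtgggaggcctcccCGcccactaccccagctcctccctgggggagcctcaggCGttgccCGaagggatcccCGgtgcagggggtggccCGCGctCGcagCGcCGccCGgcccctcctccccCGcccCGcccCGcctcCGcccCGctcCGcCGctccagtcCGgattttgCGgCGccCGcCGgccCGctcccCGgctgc
Unc5b (chr10:60831582-60831831, - strand): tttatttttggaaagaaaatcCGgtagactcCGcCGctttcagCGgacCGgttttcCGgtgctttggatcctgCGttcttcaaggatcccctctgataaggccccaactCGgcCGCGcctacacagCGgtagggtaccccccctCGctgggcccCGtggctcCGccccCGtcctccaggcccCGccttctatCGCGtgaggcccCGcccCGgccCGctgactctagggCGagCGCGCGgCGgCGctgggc
The Slit3 window held 35 CG dinucleotides, Unc5b 27, Slit2 and Unc5a 25 each, and Unc5c 23. The median of all 32851 mouse promoters of that length was 6, and 92.1% of them held at least 1. Only 2.97% had as many as Slit3, 8.56% as many as Unc5b, 10.7% as many as Slit2 or Unc5a, and 13.3% as many as Unc5c. Robo1 had 11, and the 3 start sites of Robo2 had 8, 4 and 14, values that lay closer to the median. These counts describe the sequence, and no binding or histone mark was measured in the data used here.

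The 2 experiments were normalized apart, so levels are compared only within each. Values are log2 units of the RMA summary, in which a difference of 1 is a doubling. The array medians ranged from 4.98 to 5.08 during the time course and from 6.16 to 6.27 among the rescue arrays. The 2 arrays of a group correlated at 0.994 to 0.999 across genes. The values carry no detection call. In the time course Robo1 was at or below 3.84 and Slit1 at or below 4.74 on every array, so a change of either could be hidden by a weak signal. Dcc (3.36 and 3.26), Robo2 (3.61 and 3.57) and Unc5a (4.32 and 4.24) were as low in vehicle, so their changes start from a weak signal. In the rescue experiment Unc5a lay between 5.19 and 5.33 in control and rescue arrays, below every array median. A difference among those groups could likewise be hidden. Slit1 (at most 6.06), Robo1 (5.18), Robo2 (5.75) and Dcc (5.50) lay below every array median on all rescue arrays. Their changes in that experiment could be hidden as well. The probe set of Ezh2 read 10.46 and 10.48 in Ezh2 null cells, against 10.36 and 10.56 in control cells, and whether its probes lie in the deleted part is not given, so it does not check the deletion. It read 12.26 and 11.84 in the Ezh2 pre-rescue and 12.55 and 12.12 in the post-rescue, and Ezh1 read 11.68 and 11.85 in the Ezh1 pre-rescue, against 9.50 and 9.82 in control cells. Each transgene's probe set was thus highest in the cells that received it. In bulk RNA, fewer cells that express a gene and less RNA per cell cannot be told apart.

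**Figure D1:**
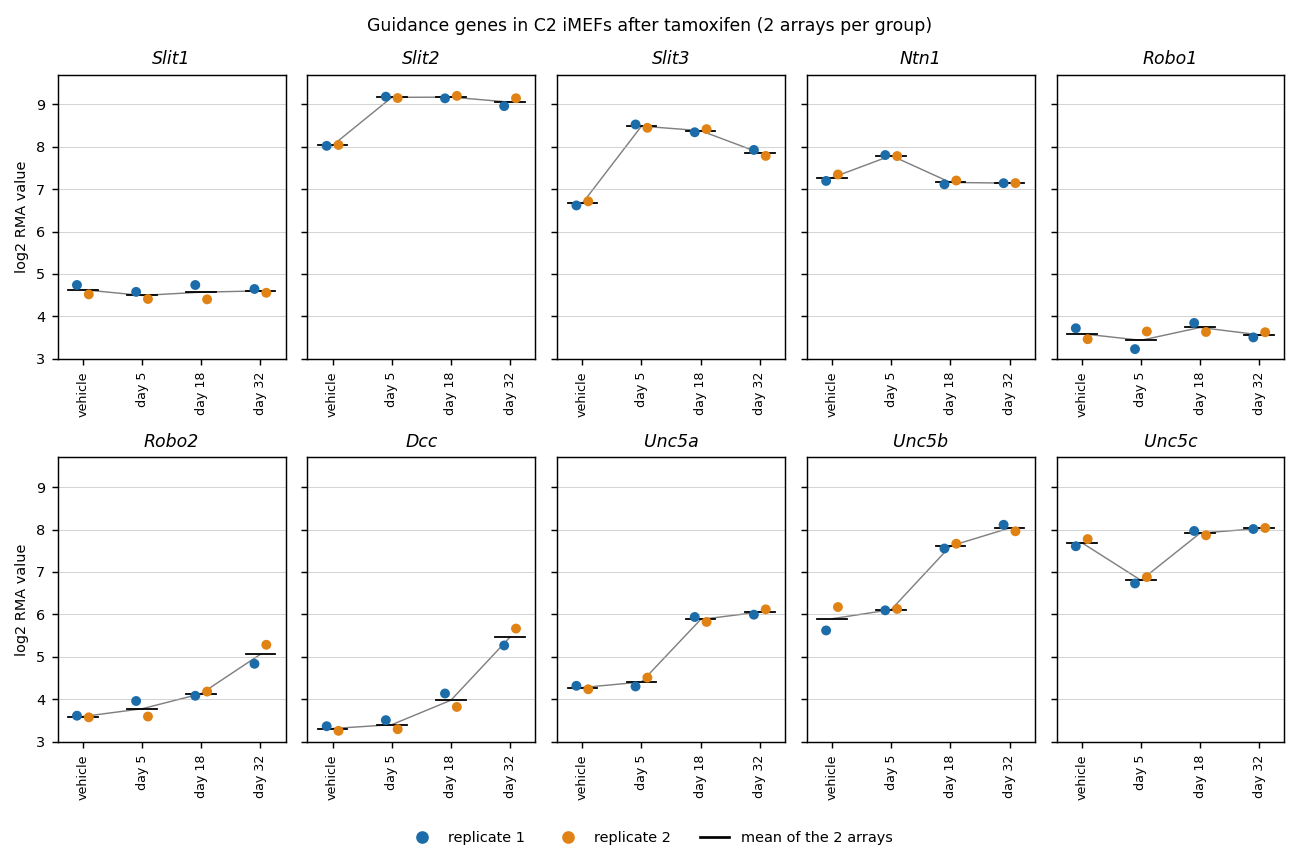
Log2 RMA values of the 10 guidance genes (vertical axis, the same scale in every panel) in vehicle-treated C2 iMEFs and at days 5, 18 and 32 after Tamoxifen. Points are single arrays, black bars are means of 2 arrays and grey lines join the means. Slit2 and Slit3 were already high at day 5, whereas Unc5a and Unc5b were high from day 18 and Dcc and Robo2 were highest at day 32.

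The earliest changes were mostly in ligands, with Slit2, Slit3 and Ntn1 higher and the receptor Unc5c lower. At day 5, 4 of the 10 genes passed the test (limma, Benjamini-Hochberg adjusted p under 0.05 over all genes), 3 higher and 1 lower than in vehicle. Over all 18820 genes 11% were called higher, 5.72% lower and 16.8% in either direction. Slit3, a ligand of the Robo receptors, read 6.62 and 6.71 in vehicle, 8.52 and 8.44 at day 5, 8.34 and 8.41 at day 18, then 7.92 and 7.78 at day 32. All 6 arrays after Tamoxifen lay above both vehicle arrays. It was 1.82 ± 0.0817 higher at day 5 on the log2 scale (SE, n = 2 arrays per group, adjusted p = 4.0e-06), or 3.53-fold, 1.71 higher at day 18 (adjusted p = 1.0e-06) and 1.19 higher at day 32 (adjusted p = 5.9e-06). From the peak it then came down, since the value at day 32 was 0.52 ± 0.0817 below that at day 18 (adjusted p = 0.00991, the test of the difference itself). This last call was lost without day 18 replicate 1 (adjusted p = 0.0558), without day 18 replicate 2 (0.0663) or without day 32 replicate 2 (0.0846), with changes of -0.56, -0.49 and -0.45.

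Slit2, the second Robo ligand on the list, read 8.02 and 8.04 in vehicle, 9.18 and 9.15 at day 5, 9.14 and 9.20 at day 18, then 8.96 and 9.14 at day 32. It was 1.13 ± 0.0813 higher at day 5 (SE, adjusted p = 3.4e-05), 1.14 higher at day 18 and 1.02 higher at day 32, which is 2.03-fold to 2.20-fold. Unlike Slit3 it showed no later step that passed the test. Its change between days 5 and 18 was 0.0061, with a 95% confidence interval from -0.18 to 0.19, and that between days 18 and 32 was -0.12 (-0.30 to 0.06). Slit1, which is the most neural of the 3 Slit genes in the mouse, stayed between 4.40 and 4.74 on all 8 arrays. Its changes against vehicle were -0.14, -0.06 and -0.03 at days 5, 18 and 32, and their intervals together ran from -0.41 to 0.25.

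Ntn1, which encodes the ligand of Dcc and the Unc5 receptors, had a short-lived change. It read 7.19 and 7.34 in vehicle, 7.80 and 7.78 at day 5, 7.11 and 7.20 at day 18, then 7.14 and 7.14 at day 32. Both day 32 arrays lay just below both vehicle arrays. The day 5 arrays lay above all the others, and at that day Ntn1 was 0.52 ± 0.0788 above vehicle (SE, adjusted p = 0.00201). By day 18 it was 0.63 ± 0.0788 below its day 5 level (adjusted p = 0.000222), and its differences from vehicle were -0.11 at day 18 and -0.13 at day 32, which did not pass the test. Centring every array on its median made both of these calls, at -0.27 (adjusted p = 0.0193) and -0.25 (adjusted p = 0.0256).

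Of the 6 receptors Unc5c was the 1 called at day 5, Unc5a, Unc5b, Dcc and Robo2 were called at days 18 and 32, Unc5c again at day 32 and Robo1 on no day. At day 18, 6 of the 10 genes were higher than in vehicle, where 15.2% of all genes were higher and 25.7% changed in either direction, and at day 32 it was 7 of 10, where 18.4% of all genes were higher and 32.7% changed. None of the 10 was called lower on either day, where 10.5% and 14.2% of all genes were. The medians of the 10 changes were 0.60 at day 18 and 1.1 at day 32, against -0.023 and -0.018 over all genes. All 3 days were set against the same 2 vehicle arrays, so their calls are not independent of each other.

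Unc5a and Unc5b, 2 of the repulsive netrin receptors, were not called at day 5 and were high from day 18. Unc5a read 4.32 and 4.24 in vehicle, 4.30 and 4.51 at day 5, 5.94 and 5.82 at day 18, then 5.99 and 6.12 at day 32. It changed by 0.13 at day 5 (95% confidence interval -0.08 to 0.34) and was 1.60 ± 0.0937 higher at day 18 (SE, adjusted p = 3.3e-06) and 1.78 higher at day 32, or 3.43-fold. The rise between days 5 and 18 was itself 1.47 (adjusted p = 3.5e-06), and the step from day 18 to day 32 was 0.18 (-0.04 to 0.39). Unc5b read 5.62 and 6.17 in vehicle, 6.10 and 6.13 at day 5, 7.55 and 7.67 at day 18, then 8.11 and 7.96 at day 32. Its vehicle arrays were further apart than those of any later day, and the day 5 arrays lay between them. It was 1.71 ± 0.151 higher at day 18 (SE, adjusted p = 4.1e-05) and 2.14 higher at day 32 (adjusted p = 6.9e-06), or 4.40-fold. At day 5 the difference of 0.21 (95% confidence interval -0.13 to 0.56) was not called, but without vehicle replicate 2 it was 0.49 and was called (adjusted p = 0.0159). Between days 5 and 18 Unc5b rose by 1.50 (adjusted p = 5.9e-05). From day 18 to day 32 it changed by 0.43 with an adjusted p of 0.165, which became 0.0292 when either vehicle array was left out of the fit.

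Unc5c, the third of these receptors, moved the other way first. It read 7.61 and 7.77 in vehicle, 6.73 and 6.88 at day 5, 7.97 and 7.86 at day 18, then 8.01 and 8.04 at day 32. At day 5 it was the 1 gene of the 10 called lower than vehicle, by -0.89 ± 0.0885 (SE, adjusted p = 0.000218). It then rose by 1.11 from day 5 to day 18 (adjusted p = 1.3e-05). At day 32 it was 0.33 ± 0.0885 above vehicle (adjusted p = 0.0164), the smallest of the calls at that day. That call was lost without vehicle replicate 1 (0.25, adjusted p = 0.103), day 32 replicate 1 (0.35, 0.0641) or day 32 replicate 2 (0.32, 0.0801), and under median centring (adjusted p = 0.0688).

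Dcc, the attractive netrin receptor, and Robo2, a Slit receptor, had the latest changes. Dcc read 3.36 and 3.26 in vehicle, 3.51 and 3.29 at day 5, 4.14 and 3.82 at day 18, then 5.27 and 5.67 at day 32. Its arrays at day 32 lay above all the others by more than 1 log2 unit. Dcc was 0.67 ± 0.147 higher at day 18 (SE, adjusted p = 0.00856) and 2.16 ± 0.147 higher at day 32 (adjusted p = 5.7e-06), or 4.46-fold, and the rise from day 18 to day 32 was 1.49 (adjusted p = 0.000923). The rise from day 5 to day 18 was 0.58 (adjusted p = 0.0139). The day 18 call was lost without vehicle replicate 2 (0.61, adjusted p = 0.0506) or day 18 replicate 1 (0.51, 0.0700), and that between days 5 and 18 without day 5 replicate 2 (0.47, 0.106) or day 18 replicate 1 (0.42, 0.110).

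Robo2 read 3.61 and 3.57 in vehicle, 3.96 and 3.59 at day 5, 4.08 and 4.18 at day 18, then 4.84 and 5.28 at day 32. It was 1.47 ± 0.152 higher at day 32 (SE, adjusted p = 6.9e-05), or 2.76-fold. At day 18 it was 0.54 higher (adjusted p = 0.0280), a call that was lost under median centring (adjusted p = 0.0704) and without any 1 of the 4 arrays compared, at 0.56 without vehicle replicate 1, 0.52 without vehicle replicate 2, 0.59 without day 18 replicate 1 and 0.49 without day 18 replicate 2 (adjusted p from 0.0751 to 0.134). From day 18 to day 32 it rose by 0.93 (adjusted p = 0.0117). That step was lost without day 18 replicate 1 (0.88, adjusted p = 0.0963), day 18 replicate 2 (0.98, 0.05003) or day 32 replicate 2 (0.70, 0.0705). Robo1, the other Slit receptor measured, was between 3.23 and 3.84 on all 8 arrays and was called at no day. It differed from vehicle by -0.16, 0.15 and -0.03 at days 5, 18 and 32, and the intervals together ran from -0.48 to 0.47.

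Between days 5 and 18, 4 genes (Unc5a, Unc5b, Unc5c and Dcc) were called higher and 1 (Ntn1) lower, against 15.6% and 16.1% of all genes, or 31.7% in either direction. Leaving out 1 array added a gene in 2 cases. Robo1 was 0.51 higher without day 5 replicate 2 (adjusted p = 0.0310), and Robo2 was 0.54 higher without day 5 replicate 1 (0.0477). Between days 18 and 32, 2 genes (Robo2 and Dcc) were called higher and 1 (Slit3) lower, against 1.4% and 2.75% of all genes, or 4.15% in either direction. The order of the group means was therefore not the same for all genes. Slit2 and Slit3 had their vehicle level at the bottom and days 5 and 18 at the top, with no called difference between these 2 days. For Unc5a and Unc5b vehicle and day 5 were at the bottom and days 18 and 32 at the top, with no called difference within either pair of groups. Dcc had separate levels at days 18 and 32.

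**Figure D2:**
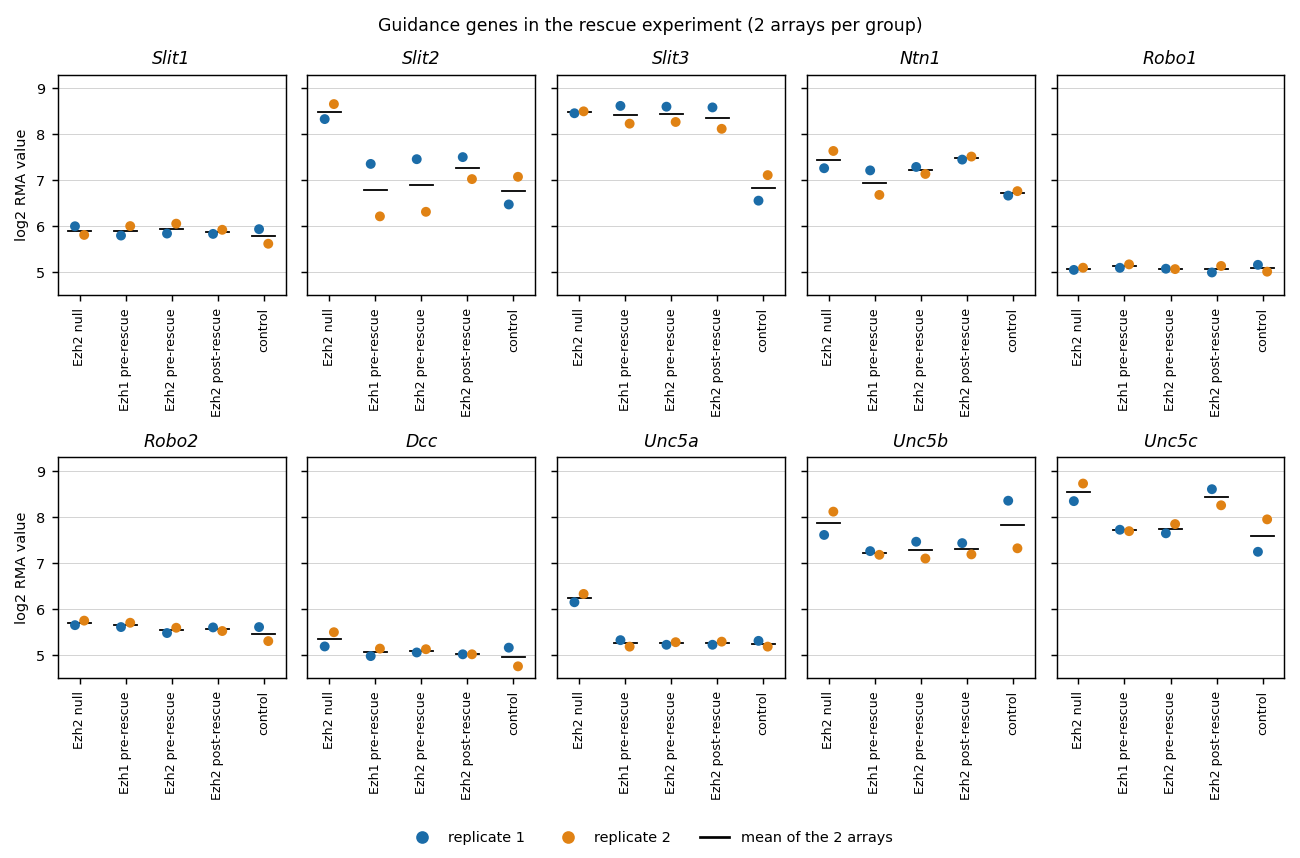
Log2 RMA values of the 10 guidance genes (vertical axis, the same scale in every panel) in Ezh2 null cells, in the 3 rescues and in control cells. Points are single arrays and bars are means of 2 arrays. Unc5a is high only in the Ezh2 null arrays (6.15 and 6.33), whereas Slit3 is high in those and in all rescue arrays (8.12 to 8.62) and lower in the control arrays (6.56 and 7.11).

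In the rescue experiment 2 of the 10 genes, Slit3 and Unc5a, were higher in Ezh2 null cells than in control cells, where 1.2% of all genes were higher, 0.755% lower and 1.95% changed in either direction. The rest did not pass the test. The median change of the 10 was 0.56, against -0.030 over all genes. The replicate number was a block in this fit, since the methods describe a batch bias by replicate.

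Slit3 read 8.46 and 8.50 in Ezh2 null cells, 8.62 and 8.23 in the Ezh1 pre-rescue, 8.60 and 8.27 in the Ezh2 pre-rescue and 8.59 and 8.12 in the Ezh2 post-rescue, against 6.56 and 7.11 in control cells. Each of the 8 arrays of deleted cells, rescued or not, lay at least 1 log2 unit above both control arrays. The gene was 1.64 ± 0.228 higher in Ezh2 null cells (SE, n = 2, adjusted p = 0.0164), or 3.12-fold, and 1.52 ± 0.228 higher in the Ezh2 post-rescue (adjusted p = 0.0383). In the pre-rescues it was 1.59 and 1.60 higher with Ezh1 and Ezh2, nearly the same sizes, at adjusted p of 0.156 and 0.194 and unadjusted p of 0.000145 and 0.000139. In those comparisons only 2 and 0 of the 18820 genes were called (0.0106% and 0%). Set against Ezh2 null cells directly, Slit3 differed by -0.05 in the Ezh1 pre-rescue (95% confidence interval -0.58 to 0.48), -0.04 in the Ezh2 pre-rescue (-0.57 to 0.49) and -0.13 in the post-rescue (-0.66 to 0.40). The call in Ezh2 null cells was lost without Ezh2 null replicate 2 (1.54, adjusted p = 0.0927). Without control replicate 2 the gene was called in both pre-rescues, at 2.01 (adjusted p = 0.00576) with Ezh1 and 2.02 (0.00691) with Ezh2, and median centring called it with Ezh1 (1.58, adjusted p = 0.0474). The post-rescue call was lost without either post-rescue array (1.30 without replicate 1, adjusted p = 0.418, and 1.73 without replicate 2, adjusted p = 0.124). It was also lost without either array of the Ezh1 pre-rescue (adjusted p = 0.0617) or of the Ezh2 pre-rescue (0.0764), where the change stayed at 1.52.

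Unc5a gave the opposite picture. It read 6.15 and 6.33 in Ezh2 null cells, 5.33 and 5.19 in the Ezh1 pre-rescue, 5.23 and 5.28 in the Ezh2 pre-rescue and 5.23 and 5.30 in the Ezh2 post-rescue, against 5.31 and 5.19 in control cells. The rescue arrays, between 5.19 and 5.33, overlapped the control arrays, and both Ezh2 null arrays lay above all of them. Unc5a was 0.99 ± 0.099 higher in Ezh2 null cells (SE, adjusted p = 0.00538), or 1.99-fold, just under the 2-fold minimum of the methods. In the 3 rescues it was lower than in Ezh2 null cells by -0.98, -0.99 and -0.98 with the Ezh1 pre-rescue, Ezh2 pre-rescue and Ezh2 post-rescue (adjusted p = 0.00874, 0.00463 and 0.0120), and it was the 1 gene of the 10 called in each of these comparisons, in which 2.3%, 7.14% and 0.6% of all genes changed (1.44%, 4% and 0.409% lower, and 0.861%, 3.15% and 0.191% higher). Against control cells the rescues differed by 0.0073, 0.0056 and 0.012, with the widest interval from -0.22 to 0.24. Each call against Ezh2 null cells was lost when an array of that rescue was left out, with changes from -0.89 to -1.08 and adjusted p from 0.0592 to 0.162.

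Slit2 had a change as large as that of Slit3 but with more spread. It read 8.33 and 8.66 in Ezh2 null cells, 7.36 and 6.22 in the Ezh1 pre-rescue, 7.46 and 6.32 in the Ezh2 pre-rescue and 7.51 and 7.03 in the Ezh2 post-rescue, against 6.48 and 7.08 in control cells. Ezh2 null arrays lay above all others, but the 2 arrays of either pre-rescue were more than 1 log2 unit apart and the rescue and control arrays overlapped. The difference between Ezh2 null and control cells was 1.72 ± 0.421 (SE, adjusted p = 0.0999). Median centring called it (adjusted p = 0.0456), and it also met the thresholds of the methods (adjusted p under 0.15 and at least 2-fold). Against Ezh2 null cells the differences were -1.71, -1.61 and -1.23 in the Ezh1 pre-rescue, Ezh2 pre-rescue and post-rescue (adjusted p = 0.0746, 0.0616 and 0.247). Both pre-rescue differences met those same thresholds, and the post-rescue difference did not. The comparisons of the pre-rescues with Ezh2 null cells were called when either control array was left out (adjusted p = 0.0308 with Ezh1 and 0.0254 with Ezh2) and under median centring (0.0407 and 0.0339), and that of the Ezh2 pre-rescue also under quantile normalization (0.0483).

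Unc5c and Ntn1 did not pass the test, and their values were high in Ezh2 null and post-rescue cells. Unc5c read 8.35 and 8.73 in Ezh2 null cells, 7.73 and 7.70 in the Ezh1 pre-rescue, 7.65 and 7.85 in the Ezh2 pre-rescue and 8.61 and 8.26 in the Ezh2 post-rescue, against 7.25 and 7.95 in control cells. The Ezh2 null and post-rescue arrays did not overlap with the other 3 groups. The difference from control was 0.94 ± 0.217 in Ezh2 null cells (SE, adjusted p = 0.0844) and 0.83 in the post-rescue (adjusted p = 0.195), and post-rescue and Ezh2 pre-rescue cells differed by 0.68 (adjusted p = 0.203, unadjusted p = 0.0144). The comparison of Ezh2 null with control was called without control replicate 2 (1.27, adjusted p = 0.0366), under quantile normalization (0.0465) and under median centring (0.0394), and both pre-rescues were called lower than Ezh2 null cells (-0.83 and -0.79) when either control array was left out (adjusted p = 0.0309 with Ezh1 and 0.0244 with Ezh2). Ntn1 read 7.26 and 7.64 in Ezh2 null cells, 7.22 and 6.68 in the Ezh1 pre-rescue, 7.29 and 7.14 in the Ezh2 pre-rescue and 7.45 and 7.52 in the Ezh2 post-rescue, against 6.67 and 6.77 in control cells. It was 0.73 ± 0.187 above control in Ezh2 null cells (adjusted p = 0.109) and 0.77 above it in the post-rescue (adjusted p = 0.163).

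None of the 5 remaining genes was called in any comparison of this experiment. Unc5b, 4.40-fold higher at day 32 of the time course, read 7.61 and 8.12 in Ezh2 null cells, 7.26 and 7.18 in the Ezh1 pre-rescue, 7.47 and 7.10 in the Ezh2 pre-rescue and 7.44 and 7.19 in the Ezh2 post-rescue, against 8.36 and 7.32 in control cells. Its control arrays were more than 1 log2 unit apart, and the difference between Ezh2 null and control cells was 0.03 with an interval from -0.65 to 0.71. It was 0.52 without control replicate 1, -0.47 without control replicate 2, 0.49 without Ezh2 null replicate 1 and -0.44 without Ezh2 null replicate 2, none of them called. The Ezh1 pre-rescue, Ezh2 pre-rescue and post-rescue differed by -0.62, -0.56 and -0.53 from control cells and by -0.64, -0.58 and -0.55 from Ezh2 null cells (adjusted p from 0.272 to 0.668). Dcc read 5.19 and 5.50 in Ezh2 null cells, against 5.17 and 4.76 in control cells, and lay between 4.98 and 5.15 in the rescues. Its difference of 0.38 in Ezh2 null cells (95% confidence interval 0.03 to 0.74, adjusted p = 0.289) was called only without control replicate 1 (0.65, adjusted p = 0.0323). For Robo2 the values were 5.65 and 5.75 in Ezh2 null cells, against 5.61 and 5.31 in control cells, a difference of 0.24 (-0.03 to 0.51). Slit1 lay between 5.62 and 6.06 and Robo1 between 5.00 and 5.18 on all 10 arrays. The sources used here do not give the time between deletion and sampling for the Ezh2 null cells.

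The Ezh1 and the Ezh2 pre-rescue were compared directly, and 0 of the 10 genes differed, at an adjusted or an unadjusted p under 0.05, where 1 gene of 18820 was called (0.00531%). The largest difference was that of Ntn1, -0.27 with an interval from -0.70 to 0.17, and that of Slit2 was -0.10 with an interval from -1.08 to 0.88, the widest of the 10. Between the Ezh2 post-rescue and the Ezh2 pre-rescue 0 of 10 were called by limma and 1, Unc5c, had an unadjusted p under 0.05, where 0.882% of all genes were called (0.574% higher and 0.308% lower). Against control, 0 of 10 were called in the Ezh1 pre-rescue (1 at an unadjusted p under 0.05) and 0 in the Ezh2 pre-rescue (2 at that level), and 1 in the post-rescue, where 0.707% of all genes were called (0.51% higher and 0.197% lower). These comparisons share the control or the Ezh2 null arrays. The share of all genes at an unadjusted p under 0.05 is not given here, so the unadjusted counts have no background.

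**Figure D3:**
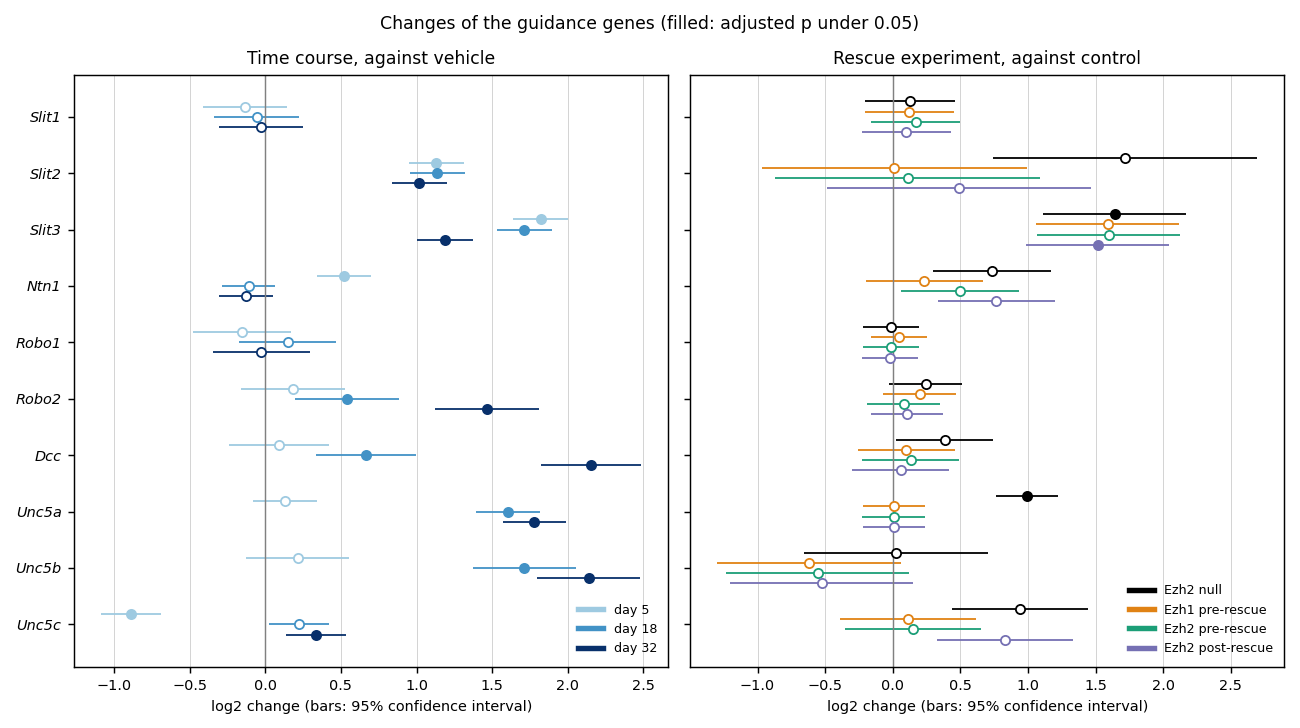
Log2 changes of the 10 guidance genes (rows) against vehicle at 3 days and against control in Ezh2 null cells and the 3 rescues, with 95% confidence intervals as bars. Filled points passed the test at an adjusted p under 0.05. Slit3 was 1.52 to 1.64 above control in all 4 groups of the rescue experiment, and Unc5a was above control in Ezh2 null cells only (0.99).

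Slit2 and Slit3 each contain a microRNA gene that makes the same mature product, and these were looked up after the values of the hosts were known. Mir218-1 lies inside Slit2 (chr5:48223942-48224051, + strand) and Mir218-2 inside Slit3 (chr11:35616816-35616925, + strand) in GRCm38.p6. The mature sequence from RefSeq is shown because both hosts rose, with the seed, bases 2 to 8, in capitals.
mmu-miR-218-5p: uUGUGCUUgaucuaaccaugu
The array has 1 probe set for each of the 2 hairpin genes, which cannot tell the hairpin from unspliced host RNA, and the shared mature form was not measured by them. Mir218-1 read 4.55 and 5.09 in vehicle, 6.57 and 6.36 at day 5, 5.25 and 5.14 at day 18, then 5.38 and 5.53 at day 32. It was 1.65 ± 0.158 above vehicle at day 5 (SE, adjusted p = 0.000178) and fell by 1.27 from day 5 to day 18 (adjusted p = 0.000224), while Slit2 kept its level over that interval. At day 32 it was 0.64 above vehicle (adjusted p = 0.0121). Mir218-2 stayed between 3.78 and 4.24 on the 8 arrays, and its largest difference from vehicle was 0.18 (95% confidence interval -0.12 to 0.49), in cells where Slit3 was 3.53-fold higher. These values lay below every array median of the time course, so a change of Mir218-2 could be hidden by a weak signal. In the rescue experiment Mir218-1 read 5.11 and 6.16 in Ezh2 null cells, against 4.53 and 4.43 in control cells, a difference of 1.15 ± 0.318 (adjusted p = 0.134).

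Other genes of the guidance pathway were read from lists chosen by function. Of 18 measured ligands and receptors outside the 10, 4 were higher and 3 lower at day 18 and 3 were higher and 3 lower at day 32. Over all genes the day 18 shares were 15.2% higher and 10.5% lower, and those of day 32 were 18.4% and 14.2%. The median changes of the 18 were -0.018 and -0.029, close to those of all genes, against 0.60 and 1.1 for the 10. Median centring gave 2 higher and 5 lower of the 18 at either day. Quantile normalization gave 3 higher and 4 lower at day 18 and 2 higher and 4 lower at day 32. Flrt2, a ligand of the Unc5 receptors, read 6.33 and 6.62 in vehicle, 7.26 and 7.26 at day 5, 7.55 and 7.80 at day 18, then 8.12 and 8.10 at day 32. It was 1.20 ± 0.111 higher at day 18 and 1.64 higher at day 32 (adjusted p = 5.2e-05 and 5.6e-06). Flrt3, of the same family, was 0.71 higher at day 18 and 1.58 higher at day 32 (adjusted p = 0.00067 and 3.8e-06). Flrt1 was 0.51 higher at day 32 (adjusted p = 0.0381) and Draxin, a secreted ligand of Dcc, 0.47 higher at day 18 (adjusted p = 0.0279), and both calls were lost under median centring (adjusted p = 0.0829 and 0.0890). Neo1, the paralogue of Dcc, read 11.04 and 11.14 in vehicle, 10.66 and 10.63 at day 18, then 10.60 and 10.67 at day 32, and fell by 0.45 and 0.46 on the log2 scale (adjusted p = 0.00163 and 0.000972). Rgmb, a ligand of Neo1, fell by 0.53 and 0.78, and Dag1, which encodes dystroglycan and binds Slits, fell by 0.44 and 0.68.

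Of 27 measured intracellular effectors, 1 was higher and 7 lower at day 18 and 0 were higher and 10 lower at day 32, where the lower share of all genes was 10.5% and 14.2%. The lower effectors numbered 11 and 15 with median centring and 9 and 11 with quantile normalization. Calls of lower genes over the whole table also increased, to 6153 and 5001 with median centring and to 2542 and 3160 with quantile normalization, against 1969 and 2679 as deposited. Enah, an actin regulator that binds Robo, fell by 0.59 at day 18 and by 0.52 at day 32 (adjusted p = 0.000272 and 0.000403). Ablim1, an actin-binding protein whose worm relative acts downstream of netrin, fell by 0.61 and 0.65 (adjusted p = 0.00116 and 0.000588). Srgap3 fell by 0.56 at day 18 and Srgap1 by 0.50 at day 32, and both encode GTPase-activating proteins that bind Robo. Evl, a relative of Enah, was 0.28 higher at day 18 (adjusted p = 0.0252), a call lost with median centring (adjusted p = 0.185). In Ezh2 null against control cells 0 of the 18 and 0 of the 27 were called by limma, where 1.95% of all genes were called. Median centring called 2 of the 18 lower there, and quantile normalization 1. At an unadjusted p under 0.05 the counts of the 18 and the 27 were 6 and 6. The share of all genes at that level is not given here, so these 2 counts have no background.

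**Figure D4:**
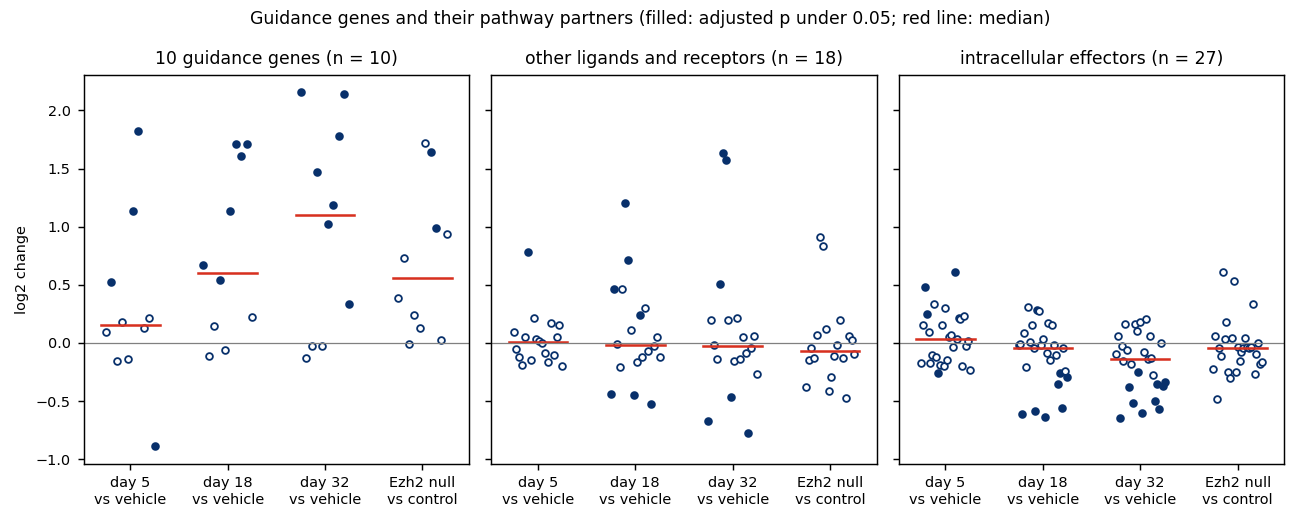
Log2 changes (vertical axis) of the 10 guidance genes, of 18 other ligands and receptors and of 27 intracellular effectors at days 5, 18 and 32 against vehicle and in Ezh2 null against control cells. Each point is a gene, filled at an adjusted p under 0.05, and the red line is the median of the list. The median of the 10 genes was 0.60 at day 18 and 1.1 at day 32, and that of the effectors -0.04 and -0.14.

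The genes whose changes lay nearest to those of a guidance gene were found over the 7 comparisons with vehicle or control. The measure was the root mean square difference, in log2 units, and unnamed predicted genes were passed over. The closest was Ptpru, a receptor tyrosine phosphatase, at 0.078 from Unc5a. It was 1.74 and 1.66 higher at days 18 and 32, 1.04 higher in Ezh2 null cells and between -0.03 and 0.09 in the rescues. Zswim5 and Cavin2 came next for Unc5a, at 0.16 and 0.18. Nearest to Dcc were Dpysl3, a mediator of growth cone collapse (0.16), Epha4, an ephrin receptor (0.16), and Sis (0.17), and nearest to Robo2 were Hnmt (0.15), Clec14a (0.17) and Snord14e (0.19). Slit2 had its nearest genes at 0.36 to 0.37 (Lhfpl2, Cemip and Dtx4) and Unc5b at 0.36 (Cenph, Rps6ka6 and Mreg). Those of Slit3 lay at 0.55 to 0.60 (Cacna1c, Dhrs9 and Rspo2), so no named gene followed Slit3 as closely as Ptpru followed Unc5a. The 7 comparisons share 2 vehicle and 2 control arrays, and the distances are a description.

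Cell type markers also changed in the time course, in both directions, and their part in the results was not tested. The mean of 14 fibroblast markers lay between 8.40 and 8.44 at day 32, against 8.96 and 8.98 in vehicle, with 2 markers higher, 6 lower and 6 not called, where 18.4% of all genes were higher and 14.2% lower. Higher were Fap (0.67) and Twist1 (0.53), and lower were Lum (-3.57), Dcn (-2.89), S100a4 (-0.60), Fn1 (-0.46), Pdgfrb (-0.44) and Col3a1 (-0.40). Vim, Prrx1, Pdgfra and Col1a1 were among those not called. At day 5 the fibroblast list ran the other way, with 7 markers higher, 1 lower and a median change of 0.25. Over all genes 11% were higher and 5.72% lower at that day. The mean of 10 neuronal markers was 3.75 and 3.82 in vehicle, 3.99 and 4.02 at day 18, then 3.91 and 3.95 at day 32, with 3 of 10 higher and 0 lower on either day. Over all genes 15.2% were higher and 10.5% lower at day 18. The neuronal markers higher at day 32 were Map2 (0.92), Stmn2 (0.51) and Gap43 (0.28). The defining neuronal markers Dcx, Rbfox3 and Snap25 changed by 0.0098, 0.09 and -0.04 at that day, with vehicle levels of 2.86, 3.52 and 3.16. At day 32 the counts were 0 higher and 2 lower of 4 glial, 1 and 0 of 8 endothelial, 0 and 0 of 6 epithelial and 1 and 0 of 6 blood markers. In Ezh2 null against control cells 0 of 10 neuronal markers were called, and 1 of 14 fibroblast markers was lower. Over all genes 1.2% were higher and 0.755% lower there.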

How the data were processed

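RNA from clone C2 iMEFs was hybridised to Affymetrix Mouse Gene ST arrays. According to the methods, the authors summarised each probe set by RMA (oligo package), which gives deposited log2 intensities. The methods also state a limma correction for replicate batch in the rescue experiment, and whether the deposited values carry it is not given. No genome build is stated for the arrays. Probe sets were named from the platform annotation, and each gene was represented by its brightest single-symbol probe set on average. The time course and the rescue experiment were fitted apart with lmFit and eBayes (limma 3.58.1, R 4.3.3), with the replicate number as a block in the rescue fit only, and p-values were two-sided and adjusted by Benjamini-Hochberg over 18820 genes. The fit was tested on simulated data. Both experiments left 4 residual degrees of freedom, and the number of arrays limits the precision. Same-numbered arrays deviated with correlations from -0.07 to 0.05 over 6 pairs of groups in the time course and from -0.43 to 0.54 over 10 in the rescue experiment, so not every pair deviated together. The block was kept in the rescue fit because the methods state a replicate batch. The thresholds of the methods (adjusted p under 0.15 and at least 2-fold) were an alternative; the rank product test they name was not run. Alternatives also covered quantile normalization, median centring, dropping the lowest 30% of genes, a variance trend, averaged probe sets, the replicate block and leaving out each array. Named beyond the 10 genes were Ezh2 and Ezh1, up to 3 called genes per direction from the pathway lists and genes nearest in pattern. The latter were the 3 nearest to each gene with a called 2-fold change, with unnamed predicted genes passed over. Mir218-1, Mir218-2 and the named cell type markers were added after their values were seen. The 10 genes and all lists were chosen with earlier results of these data known.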

Additional observations from a re-analysis of the deposited data

Results flagged for a closer look

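Genes whose change since vehicle differed between times, by a test of the difference itself in limma, were the following. From day 5 to day 18 the difference was -0.63 for Ntn1, 1.47 for Unc5a, 1.50 for Unc5b, 1.11 for Unc5c and 0.58 for Dcc (adjusted p = 0.000222, 3.5e-06, 5.9e-05, 1.3e-05 and 0.0139). From day 18 to day 32 it was -0.52 for Slit3, 0.93 for Robo2 and 1.49 for Dcc (adjusted p = 0.00991, 0.0117 and 0.000923).

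For 3 genes both arrays went one way at a time point of the time course and the opposite way in Ezh2 null cells on the group means, and this difference was not tested because the experiments were normalized apart. Unc5c was 0.94 above control in Ezh2 null cells, a difference that did not pass the test, against -0.89 at day 5. Ntn1 was 0.73 above control in Ezh2 null cells, against -0.11 at day 18 and -0.13 at day 32, and Slit1 was 0.13 above control in Ezh2 null cells, against -0.14 at day 5, with none of these called. The Slit1 arrays overlapped the vehicle arrays and the control arrays in these comparisons, and the Ntn1 arrays of day 18 overlapped the vehicle arrays.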

How the results depend on the processing

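The counts of called genes among the 10 moved by more than 1.5 times in the following cases. Under median centring the count was 4 instead of 2 in Ezh2 null against control (Slit2 and Unc5c added), 1 instead of 0 in the Ezh1 pre-rescue against control, and against Ezh2 null 2 instead of 1 in the Ezh1 pre-rescue and 3 instead of 1 in the Ezh2 pre-rescue. Quantile normalization also gave 3 in that last comparison, and a variance trend gave 2. With the thresholds of the methods the counts were 2 instead of 4 at day 5 against vehicle, 3 instead of 5 at day 18 against day 5, 1 instead of 3 at day 32 against day 18, and 0 instead of 1 in the post-rescue against Ezh2 null. The thresholds' fold minimum and their looser p act in opposite directions, and which one moved a count was not tested. Where a count stayed the same under these thresholds, the gene could differ. In Ezh2 null against control Unc5a was lost (0.99, just under 2-fold) and Slit2 was called instead (1.72). In the Ezh1 and Ezh2 pre-rescues against Ezh2 null Unc5a was likewise lost (-0.98 and -0.99) and Slit2 called (-1.71 and -1.61).

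Leaving out each array in turn gave counts of 4 to 5 at day 5, 4 to 6 at day 18 and 6 to 7 at day 32 against vehicle, 4 to 6 at day 18 against day 5 and 1 to 4 at day 32 against day 18. In the rescue experiment it gave 1 to 3 in Ezh2 null against control, 0 to 1 in each rescue against control, 0 to 3 in each pre-rescue and 0 to 1 in the post-rescue against Ezh2 null, and 0 in the comparisons between rescues. The lone array left in a group was assumed to vary like the others.

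Adding the replicate block in the time course or removing it in the rescue experiment changed no count of the 10, which was 4 at day 5, 6 at day 18, 7 at day 32 and 2 in Ezh2 null against control either way. Over all genes, removing the block gave 330 higher and 264 lower in Ezh2 null against control instead of 225 and 142, and 122 and 143 in the post-rescue against Ezh2 null instead of 36 and 77.

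Median centring shifted the median change of all genes to -0.15 at day 5, -0.18 at day 18 and -0.14 at day 32, and the share of higher genes among the called to 22.8%, 22.8% and 33.6%, against 65.9%, 59.3% and 56.4% without it. Quantile normalization gave 51.0% at day 5. Of the 140 single-gene changes 31 were called, and none of these changed sign. Outside the runs that left out arrays, 26 values that were not called took the other sign, with sizes of at most 0.15. Dropping the lowest 30% of genes left 117 of the 140 changes and changed none of their calls.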
